A study of Mus musculus with 2 samples.

Results

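Mouse Lin-c-kit+Sca1+ cells of the bone marrow (LSK cells, which lack lineage antigens and carry Kit and the antigen Sca-1) were profiled on an Affymetrix mouse expression array, and the values of the growth arrest genes of the Btg/Tob and Gadd45 families are described here. The members were all probe sets of the deposited value table that the platform annotation assigns to Btg1, Btg2, Btg3, Tob1, Gadd45a, Gadd45b, Gadd45g or Trp53. This gave 9 of the 12422 probe sets besides the controls, and they covered 7 of the 8 genes, out of 8949 genes that the table names on this array, 8251 of them through a probe set of their own. Of the 9, 8 name a single gene, and the one for Btg3 also names the pseudogene Gm7334, so Btg3 cannot be told apart from it. The annotation table assigned none to Trp53, the gene of the transcription factor p53, so its RNA level is not analysed here.

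The data are 2 samples of 1 group, sample 1 and sample 2. Per the labels, both are sorted mouse bone marrow cells whose RNA was amplified in 2 rounds before hybridisation. The labels give no genotype, strain, age, treatment or second condition, and nothing in them tells whether these were separate animals or sorts. The spread between them may therefore be technical, and with 1 group of 2 arrays no gene was tested and no p-value is given. The genes were chosen by name, with their signals and their differences between these samples in view, so both are given as a description.

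Proteins of the Btg/Tob family share an N-terminal domain that binds the Caf1 deadenylases of the CCR4-NOT complex, the machine that shortens the poly(A) tails of mRNA, and they slow cell proliferation. The Gadd45 proteins are small acidic proteins that bind the replication clamp PCNA, the mitotic kinase CDK1 and the kinase MAP3K4, which acts upstream of p38 and JNK. Btg2 and Gadd45a are textbook targets of p53, and Btg2, first cloned as TIS21 and PC3, is also an immediate early gene. In blood formation such genes are studied because most stem cells divide rarely.

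Signals below were quantile-normalized between the arrays, on an arbitrary linear scale. The level of detection, called the bacterial level, was the 90th percentile of the 15 probe sets for bacterial genes, 12.1 in sample 1 and 8.91 in sample 2. Signals under a floor of 20 were set to 20 before taking log2, so a fold change that involves a signal under 20 is only a bound, marked by "at least". In both arrays 57.7% of the signals lay under the floor. Over the 6118 probe sets above the bacterial level in both samples, the log2 signals had a replicate SD of 0.58. In bulk RNA, fewer cells that express a gene and less RNA per cell cannot be told apart.

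Of the 9 member probe sets, 7 had a higher floored signal in sample 2, none had a higher one in sample 1, and 2 lay under the floor in both. Of all 12422 probe sets, 25.1% were higher in sample 2, a share held down by probe sets under the floor in both samples, which count as equal. A difference of 2-fold or more towards sample 2 was found for 4 of the 9, namely Btg2, both probe sets of Gadd45b and 1 of Tob1, against 5.48% of all probe sets. No member was 2-fold or more higher in sample 1, where the share of all probe sets was 5.49%. The median log2 difference (sample 2 minus sample 1) of the 9 was 0.95, or 1.93-fold, with a range of 0 to 3.95, and the median over all probe sets was 0. Of the 5 members above the bacterial level in both samples, 3 were 2-fold or more higher in sample 2. Of all probe sets above it, 9.40% were, and 10.5% were 2-fold or more higher in sample 1. The members were chosen with these differences known, so nothing is read from these shares.

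Counted by gene, 3 of the 6 genes with a probe set of their own (Btg1, Btg2 and Gadd45b) were above the bacterial level in both samples, while the share over all 8251 genes with a probe set of their own was 57.0%. In sample 2 alone the count was 5 of 6, with Tob1 and Gadd45a added, and in sample 1 alone it was 4 of 6, with Gadd45g added. With each sample taken alone, 5860 of all 8251 genes were above it in sample 2 and 5309 in sample 1. By probe set, 6 of 9 were above it in sample 1 and 7 of 9 in sample 2, against 56.3% and 63.4% of all probe sets. In both samples 5 of 9 were above it, against 49.3%. A further 2 of 9 were above it in sample 2 and not in sample 1, against 14.1% of all probe sets.

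**Figure D1:**
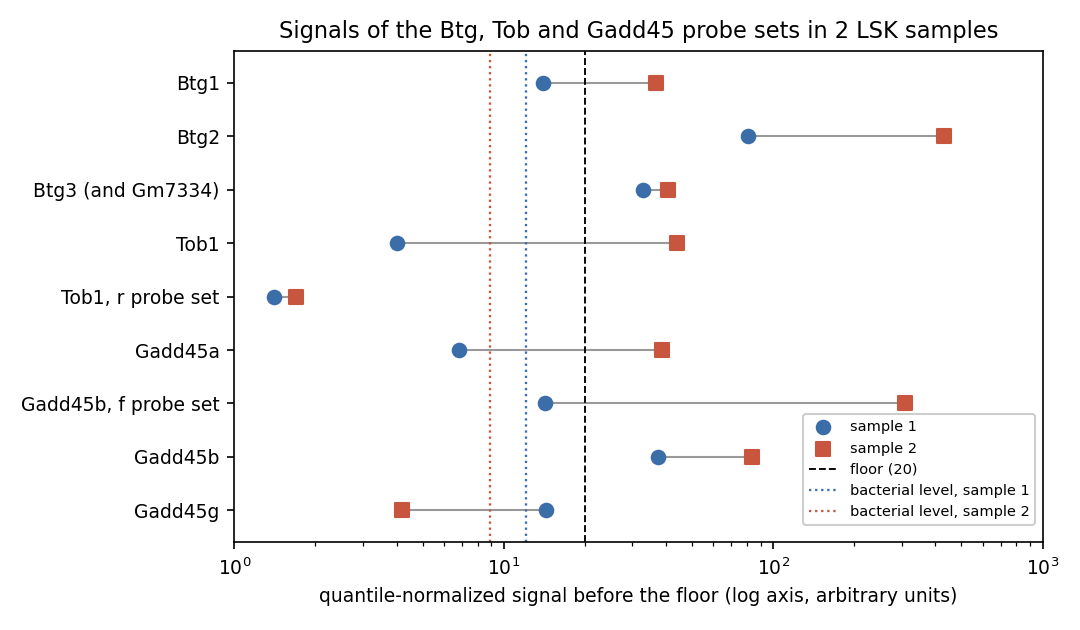
Quantile-normalized signal (log axis, arbitrary units, before the floor) of each of the 9 member probe sets in sample 1 (circles) and sample 2 (squares), with the floor and the bacterial level of each sample as vertical lines. Btg2 and the f probe set of Gadd45b reached the highest signals in sample 2, 430 and 310, and Gadd45g was the member whose unfloored signal was lower in sample 2.

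Among the Btg genes, Btg2 differed most. Its 1 probe set gave 80.6 in sample 1 and 430 in sample 2, both above the floor and the bacterial level. Sample 2 was 5.33-fold higher, with a mean log2 signal of 7.54 ± 1.71 (SD, n = 2). Of the 4225 probe sets with both signals at or above 20, 33 (0.781%) had a larger difference towards sample 2. The scaling made little difference to it: the log2 difference was 2.41 after quantile normalization, 2.37 with the values as deposited and 2.51 with median-centring.

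Btg1, an antiproliferative gene expressed in resting cells, lay near the floor. Its signal was 14 in sample 1, above the bacterial level and under the floor, and 36.7 in sample 2. Sample 2 was therefore at least 1.83-fold higher (mean log2 signal 4.76 ± 0.62 with the floor, SD, n = 2). The signals for Btg3, read through the probe set shared with Gm7334, were 33.0 and 40.8. They were 1.24-fold apart (5.20 ± 0.22, SD, n = 2), a log2 difference of 0.31 that was below the replicate SD of 0.58.

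Tob1, which encodes a larger relative of the Btg proteins that also binds poly(A)-binding protein, had discordant probe sets. The first had 4 in sample 1, below the bacterial level, and 44.0 in sample 2, so sample 2 was at least 2.20-fold higher. The mean log2 signal with the floor was 4.89 ± 0.80 (SD, n = 2). The other, the r probe set, had 1.4 and 1.7, below the bacterial level in both samples, and gave no fold. The suffix r in its name marks a probe set for which the array's designers had to relax their probe selection rules.

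The sequences upstream of Btg2 and Tob1 are shown because these genes were 2-fold or more apart between the samples, and they come from RefSeq promoters of GRCm38.p6. Each is the 250 bases before the annotated start, read 5′ to 3′ on the gene's strand. That of Btg2 is chr1:134079156-134079405 on the minus strand and that of Tob1 chr11:94211204-94211453 on the plus strand. Capitals mark motif matches on either strand. The motifs searched were the cyclic AMP response element (CRE), spelled TGACGTCA, and the related AP-1 site, spelled TGANTCA. Core promoter motifs were the CCAAT box, spelled by its name, and the TATA box, whose letters were TATAAA. The E-box searched was CACGTG, bound by basic helix-loop-helix factors such as Myc. The CArG box of serum response factor and the p53 half-site were searched by their consensus.
Btg2: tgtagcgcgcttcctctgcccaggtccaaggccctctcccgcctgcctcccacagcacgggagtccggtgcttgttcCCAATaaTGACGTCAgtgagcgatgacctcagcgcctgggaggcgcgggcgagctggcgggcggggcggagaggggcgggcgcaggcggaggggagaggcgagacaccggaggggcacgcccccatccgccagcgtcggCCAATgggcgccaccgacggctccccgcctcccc
Tob1: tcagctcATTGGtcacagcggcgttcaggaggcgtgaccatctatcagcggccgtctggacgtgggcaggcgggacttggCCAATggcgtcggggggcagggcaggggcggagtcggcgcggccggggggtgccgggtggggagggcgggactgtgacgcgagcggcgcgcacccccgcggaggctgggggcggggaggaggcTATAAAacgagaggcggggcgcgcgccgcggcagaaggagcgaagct
In Btg2 the CRE began 166 bases before the start, beside a CCAAT box at 173, and another CCAAT box lay at 34. Of 32851 RefSeq windows of the same length 1.55% held this CRE, and among the members it was found only in Btg2. Tob1 had CCAAT boxes at 243 and 170 and a TATA box at 47.

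Among the Gadd45 genes, Gadd45b, first cloned as the myeloid differentiation primary response gene MyD118, had the largest difference, and its probe sets disagreed in size. The first gave 37.4 in sample 1 and 83.2 in sample 2, a 2.23-fold difference (mean log2 signal 5.80 ± 0.82, SD, n = 2). Of the probe sets with both signals at or above 20, 7.76% had a larger difference towards sample 2. The other, the f probe set, had 14.2 in sample 1, just above the bacterial level, and 310 in sample 2, so sample 2 was at least 15.5-fold higher (6.30 ± 2.79 with the floor, SD, n = 2). The suffix f marks a probe set whose probes can match several members of a sequence family. Both pointed to sample 2.

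Gadd45a, the p53-responsive gene that is induced by DNA damage, was above the bacterial level only in sample 2. Its signals were 6.85 in sample 1 and 38.5 in sample 2, at least 1.93-fold higher in sample 2 (4.79 ± 0.67 with the floor, SD, n = 2). Gadd45g, a cytokine-responsive member of the family also called CR6, was low in both. Its signal was 14.3 in sample 1, above the bacterial level, and 4.2 in sample 2, below it. Both signals were under the floor, so no fold is given. Of the family, Gadd45b alone was above the bacterial level in both samples.

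The upstream windows of Gadd45a and Gadd45b are printed in the same way, since these genes were higher in sample 2 while Gadd45g lay under the floor in both. They are chr6:67037408-67037657 on the minus strand and chr10:80929841-80930090 on the plus strand.
Gadd45a: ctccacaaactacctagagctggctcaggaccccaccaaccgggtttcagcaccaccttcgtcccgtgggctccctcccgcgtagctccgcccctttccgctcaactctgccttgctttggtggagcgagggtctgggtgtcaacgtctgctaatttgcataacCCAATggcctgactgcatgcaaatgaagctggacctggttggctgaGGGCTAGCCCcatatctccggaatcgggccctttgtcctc
Gadd45b: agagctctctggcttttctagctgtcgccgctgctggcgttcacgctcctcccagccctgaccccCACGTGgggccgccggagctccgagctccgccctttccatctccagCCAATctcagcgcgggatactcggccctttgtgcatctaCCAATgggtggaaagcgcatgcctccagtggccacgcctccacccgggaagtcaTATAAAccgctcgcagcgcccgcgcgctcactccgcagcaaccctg
Gadd45a had a CCAAT box at 86 and a p53 half-site at 40 bases before the start, and 7.13% of all windows held such a half-site. Gadd45b had an E-box at 185, CCAAT boxes at 139 and 100 and a TATA box at 46. Gadd45g, under the floor in both samples, also had an E-box (at 142), a CCAAT box (at 78) and a TATA box (at 27). The E-box was found in 2 of the 9 windows of the 8 genes, against 6.02% of all windows.

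Each of the 9 windows (Btg3 has 2 annotated starts) held a CCAAT box, including those of Btg3 and Gadd45g, against 33.8% of all windows. A TATA box was found in 5 of 9, against 12.4%, and that of Trp53, whose window is counted here though its RNA was not read, began 248 bases before the start. No window held an AP-1 site or a CArG box, which 6.75% and 1.47% of all windows held. None of the motifs searched overlapped another in these windows. The matches are a description of letters, and no binding was measured in these samples.

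**Figure D2:**
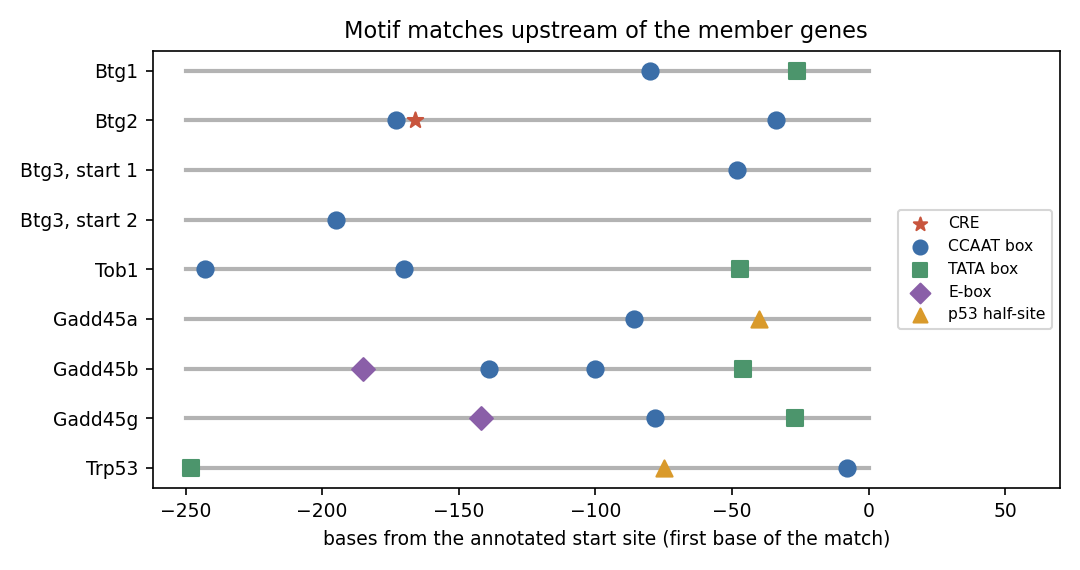
Motif matches in the 250 bases upstream of each annotated start of the 8 genes, by distance of the first base of the match from the start (horizontal axis, bases). Every window holds a CCAAT box, and the CRE is in the Btg2 window alone.

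The scatter of differences against signal places the members among the probe sets measured on both arrays. The genes whose difference was nearest to that of Btg2, among 3338 genes with both signals at or above 20, were Hlx (25.4 and 136), a homeobox gene, Cks2 (77.9 and 419), which encodes a partner of cyclin-dependent kinases, and the interferon receptor gene Ifnar2 (29.2 and 159). Their log2 differences were 2.42, 2.43 and 2.44. With 2 samples, likeness rests on this single difference.

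**Figure D3:**
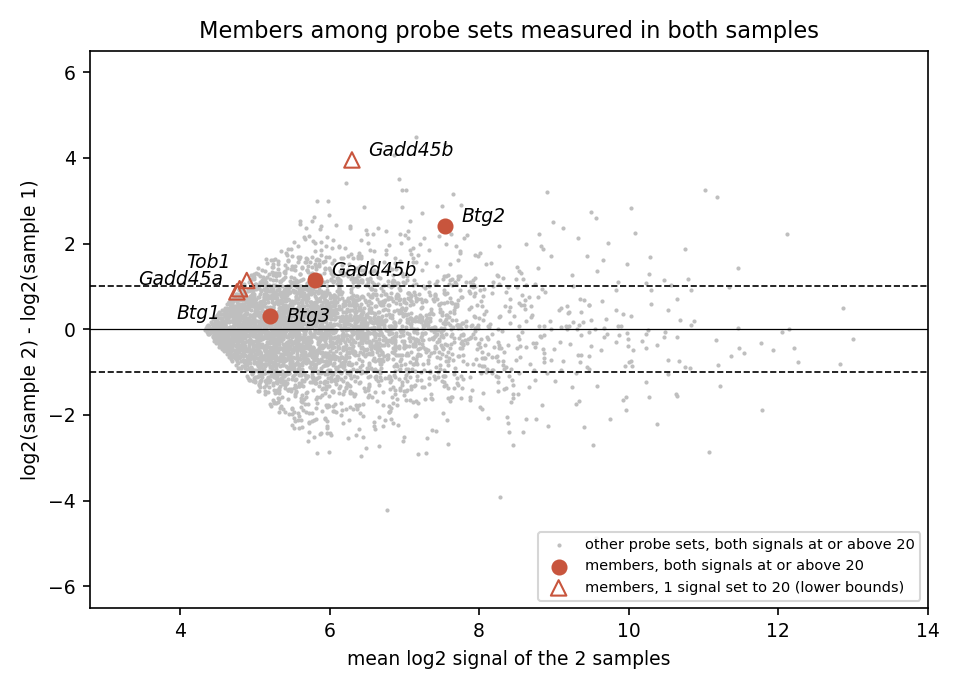
Log2 difference (sample 2 minus sample 1, vertical axis) against mean log2 signal (horizontal axis) for the 4225 probe sets with both signals at or above 20 (grey), with the members in red and triangles for lower bounds. Dashed lines mark 2-fold. Btg2 at 2.41 and Gadd45b at 3.95 and 1.16 lie above the upper line, and Btg3 lies near 0.

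Beside the members stand the genes they work with, in lists written with earlier results of these data in view. Their counts and differences are therefore given as a description. Together 5 lists held 57 measured genes, of which 27 were above the bacterial level in both samples. Over all 8251 genes with a probe set of their own the share was 57.0%. The count of each list below stands beside that same share. The median log2 difference of the 27 was 0, as it was over the 4707 genes of the array above that level. Of those 4707 genes 43.3% were higher in sample 2, 9.62% by 2-fold or more, and 11.0% were 2-fold or more higher in sample 1.

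For the partners of Btg and Tob proteins, 6 of 12 measured genes were above the bacterial level, 4 of them higher in sample 2 and 2 in sample 1, with a median log2 difference of 0.25. The poly(A)-binding protein gene Pabpc1 had 2125 in sample 1 and 1026 in sample 2, 2.07-fold higher in sample 1, and was the only one of the 6 that was 2-fold apart. Its relative Pabpc4 had 277 and 346, the CCR4-NOT subunit gene Cnot2 had 73.6 and 104, and the deadenylase subunit gene Pan2 had 20.6 and 33.3. The other probe sets of Pabpc4 (3.35 and 3.95) and Pan2 (2.35 and 0.95) were below the bacterial level in both samples. With every probe set of a gene required to pass, 4 of the 12 genes were above it. The genes of the deadenylases that Btg proteins bind, Cnot7 (5.65 and 14.6) and Cnot8 (5.15 and 12.1), named here after their values were seen, were above the bacterial level in sample 2 only. For Cnot7 this rests on its strongest probe set. Its others (8.6 and 2.15, 1.5 and 3.25) were below the bacterial level in both samples. Taking sample 2 alone, 10 of these 12 genes passed it, against 5860 of all 8251 genes.

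For the partners of Gadd45 proteins, 6 of 8 were above the bacterial level, 3 higher in each sample, with a median of -0.27. The replication clamp gene Pcna had 403 and 208 (1.94-fold higher in sample 1) and the mitotic kinase gene Cdk1 had 115 and 58.4 (1.97-fold), neither 2-fold apart. The p38 kinase gene Mapk14 had 96.2 and 61.3. Cdkn1a, which encodes the kinase inhibitor p21 and is also a p53 target, went the other way with 33.5 and 75.4, 2.25-fold higher in sample 2. Its other probe set had 4.40 and 76.0. With every probe set of a gene required to pass, 3 of the 8 genes were above the bacterial level.

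Regulators of p53 were above the bacterial level in 9 of 14 cases, with 2 higher in sample 2, 6 higher in sample 1, 1 at the floor in both and a median of -0.27. The nucleolar gene Npm1 had 617 and 217, 2.84-fold higher in sample 1. The checkpoint kinase gene Chek1 had 148 and 123. Another checkpoint kinase gene, Chek2 (named after its values were seen), had 127 and 47.1. Crebbp, which encodes an acetyltransferase that modifies p53, had 87.6 and 170. Of the p53 targets, 6 of 15 were above the bacterial level, 5 higher in sample 2 and 1 in sample 1, with a median of 0.45. The DNA repair gene Xpc had 23.6 and 79.1, 3.35-fold higher in sample 2, which with Cdkn1a made 2 targets that were 2-fold or more apart. Ei24 had 102 and 124, and Zmat3 had 38.4 and 27.6. The gene of the p53 ubiquitin ligase Mdm2, which both lists hold and which is named after its values were seen, had 13.6 and 30.6. In sample 2 alone 10 of the 15 targets were above the bacterial level, against 5860 of all 8251 genes.

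Of 10 other genes named for growth arrest, DNA damage or myeloid differentiation, 2 were above the bacterial level in both samples. At their strongest probe sets the noncoding gene Gas5 had 804 and 825 and Gas8 27.4 and 24.6, so neither was 2-fold apart there. Other probe sets of Gas5 had 1.95 and 2.9, and 18.55 and 5.95. The other of Gas8 had 5.05 and 6.15, so all of these were under the floor. With every probe set of a gene required to pass, 0 of the 10 genes were above the bacterial level in both samples. In sample 2 alone 7 of 10 were above the bacterial level, and in sample 1 alone 4 of 10. Of all 8251 genes, 5860 and 5309 were above it in these samples. Singled out after their values were seen, Ppp1r15a, also called GADD34, had 11.2 and 80.9 (at least 4.04-fold higher in sample 2), and the stress gene Ddit4 had 4.12 and 87.3 (at least 4.36-fold). Ddit3, also called GADD153, had 10.3 and 10.0, both under the floor.

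Immediate early genes moved in the same direction as Btg2. Of 18 measured, 14 were above the bacterial level in both samples, of which 13 were higher in sample 2, 12 of them by 2-fold or more, and none was higher in sample 1. Their median log2 difference was 2.99, or 7.97-fold, and 2.57 over all 18. Fos had 41.7 and 839, Jund 279 and 1862 and Ier2 115 and 395. The other probe set of Fos had 9.15 and 8.25, under the floor in both samples. The other probe sets of Egr1 (1.6 and 6.15) and Klf4 (1.3 and 0.6) lay under it too, as did another of Atf3 (2.25 and 1.85). Further probe sets of Junb (8.55 and 75.8) and Atf3 (3.25 and 56.6) were higher in sample 2. At their strongest probe sets, which gave the gene values, Egr1 had 36.35 and 410, Klf4 38 and 117, Atf3 12.6 and 244 and Junb 53.45 and 95.2. Egr1, Klf4, Atf3 and Junb are named for their further probe sets, outside the naming rule. With all probe sets required to pass, 9 of the 18 genes were above the bacterial level. With each gene's probe sets averaged, the median log2 difference fell from 2.99 to 2.19. The summed signal of the 18 genes was 815 in sample 1 and 6691 in sample 2. Whether this bears on the differences of Btg2 and Gadd45b was not tested.

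**Figure D4:**
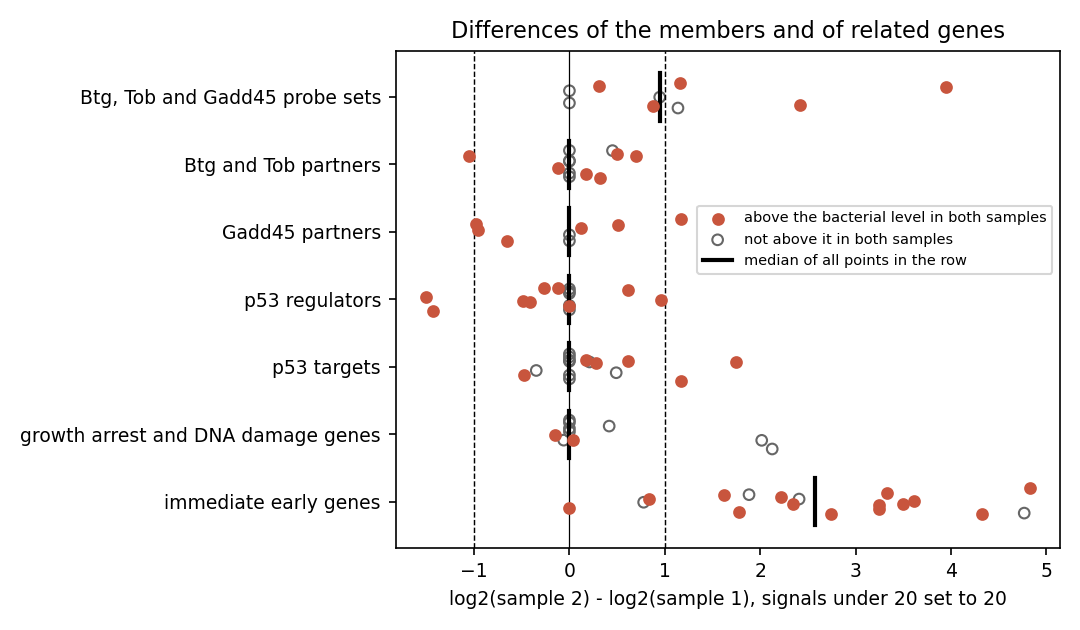
Log2 difference (sample 2 minus sample 1, signals under 20 set to 20) of the 9 member probe sets and of each measured gene of the 6 lists, filled where above the bacterial level in both samples, with the median of all points of a row as a bar. The members have a median of 0.95 and the immediate early genes 2.57, and the other lists have medians of 0.

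Markers checked the label and the other cell types a sorted fraction could hold. Of 7 measured LSK marker genes, 7 were above the bacterial level in both samples by at least 1 probe set, with summed signals of 913 and 904. Further probe sets of Cd34 (4.5 and 19.6), Gata2 (1.95 and 1.05), Lmo2 (8.45 and 29.95) and Myb (3.35 and 0.5) were not above it in both. That of Flt3 (60.8 and 100.4) was. Of these genes, Flt3 (137 and 322), Lmo2 (146 and 165) and Myb (490 and 232) were the strongest. Kit had 25.8 and 19.4, under the floor in sample 2, and Ly6a, which encodes Sca-1, is not analysed here. Of 7 T cell genes 0 were above it, with sums of 31.9 and 34.6. B cell markers were above it in 4 of 5 cases (sums 145 and 133). Ptprc, counted among these though it is not specific to B cells, had 19.8 and 13.7, both under the floor. Further probe sets of Ptprc (0.5 and 0.95, 1.85 and 3.65) and Ms4a1 (1.95 and 22.95) were not above the bacterial level in both samples. Granulocyte and macrophage markers were above it in 5 of 7 (sums 2501 and 1144), with Mpo at 1862 and 288 and Camp at 91.9 and 269. Ly6g, also counted, had 14.05 and 9.25, both under the floor. Erythroid markers were above it in 2 of 3 (sums 248 and 755), with Hba-a1 at 30.1 and 670 and Klf1 at 215 and 80.5. Over all 8251 genes with a probe set of their own, 57.0% were above the bacterial level in both samples. Whether other cell types were present was not tested. The part of the marker genes in the differences of the members was not tested either.

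The treatment of low signals moved the differences of Btg1, Btg2 and the first probe set of Gadd45b more than the scaling did. It moved those of the first Tob1 probe set, Gadd45a, Gadd45g and the f probe set of Gadd45b most. The log2 difference of that f probe set was 3.95 with the floor, 4.44 without it and 2.885 with an offset of 32 in its place. With no floor, 7 of the 9 were 2-fold or more apart, 6 of them higher in sample 2 and 1, Gadd45g, higher in sample 1. On that scale the log2 difference was 3.46 for the first Tob1 probe set, 2.49 for Gadd45a, 1.39 for Btg1 and -1.77 for Gadd45g. The shares of all probe sets that were 2-fold or more apart also rose without the floor, to 20.1% higher in sample 2 and 19.96% higher in sample 1. With an offset of 32 added in place of the floor, 3 members were 2-fold or more higher in sample 2, and the first Gadd45b probe set, at 0.73, was no longer among them. Btg2 stayed between 2.0 and 2.51 in each of the 9 combinations of 3 scalings and 3 treatments of low signals.

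**Figure D5:**
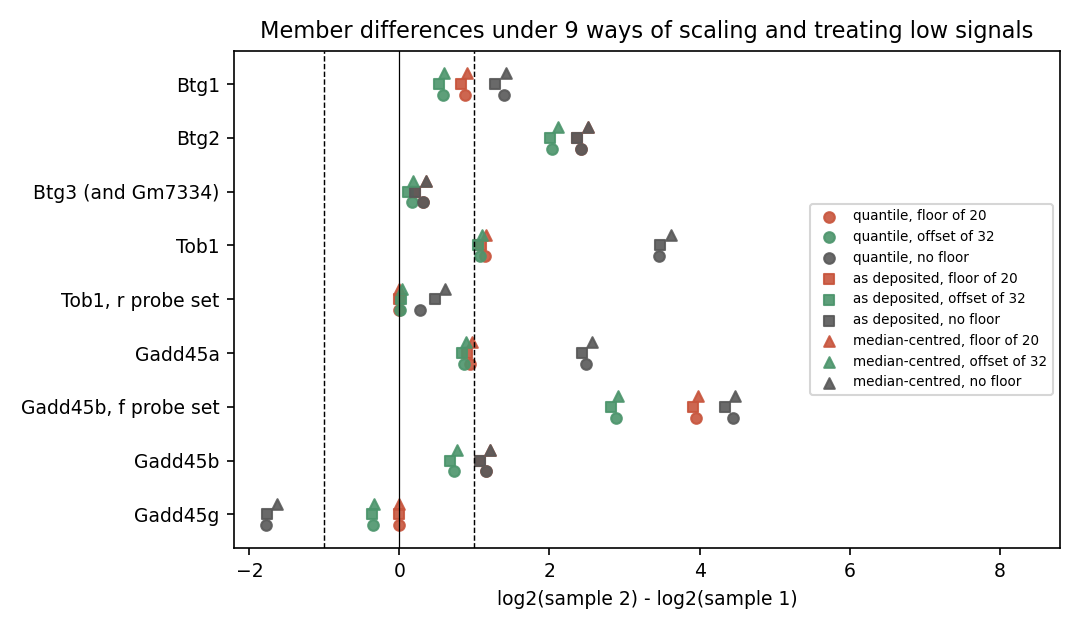
Log2 difference (horizontal axis) of each member probe set under quantile, deposited and median-centred scaling (marker shapes), each with a floor of 20, an offset of 32 or no floor (colours). Dashed lines mark 2-fold. Btg2 and the f probe set of Gadd45b lie above 2-fold under all 9 combinations, and the f probe set, Tob1, Gadd45a and Gadd45g spread with the treatment of low signals.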

How the data were processed

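The authors deposited a linear signal intensity for every probe set and sample. For the summarisation and scaling, the software was not given in the sources used here. Both columns had the same mean (53.944) and their medians were 15.9 and 14.45. RNA was amplified in 2 rounds, per the labels. Arrays were quantile-normalized over all 12488 probe sets, signals under 20 were set to 20 and log2 was taken (Python 3.11.15, numpy 2.4.6, pandas 2.3.3). The 66 control probe sets were then left out of counts. A gene took the value of its strongest probe set by mean log2 signal, and passed the bacterial level where at least 1 of its probe sets did. Gene names came from the platform annotation: 10833 probe sets named 1 gene, 396 several and 1193 none. Lists used no probe set with several genes. The normalization and fold steps were tested on simulated data with less noise than these arrays and with changes placed only in strong probe sets. That test does not cover members near the floor.

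The members and lists were chosen with earlier results of these data known. The named genes are every member, and of each list the 3 genes above the bacterial level with the highest mean signal and the gene with the largest difference in each direction with both signals above the floor. Marker genes are examples named after their values were seen. To these come the 3 genes nearest to Btg2 in difference. Others are marked as such in the text. Alternatives tried were other cut-offs for the bacterial level, samples singly, every probe set of a gene required, the mean over them, other scalings, an offset of 32, no floor and no filter. The number of arrays limits the precision, and no detection calls or probe-level values were used.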

Additional observations from a re-analysis of the deposited data

Results flagged for a closer look

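A signal in data outside the member values was found for the p53 pseudogene. The annotation assigns no probe set to Trp53 itself but 2 to Trp53-ps. The r probe set of these had 66.2 in sample 1 and 89.2 in sample 2, above the bacterial level in both. The other had 7.95 and 3.65, below it in both. Which transcript either measured was not tested.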

How the results depend on the processing

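Leaving out 1 sample raised the counts above the bacterial level. It could not lower them, because the main rule asks for a pass in both samples. With 1 sample left out in turn, the member genes above it numbered 4 to 5 in place of 3 of 6, and the genes of the 5 related lists 31 to 45 in place of 27 of 57. All genes above it numbered 5309 to 5860 in place of 4707 of 8251. Without a floor, 7 members were 2-fold apart in place of 4. The median difference of the members and that of the related lists moved by less than the replicate SD under each alternative run. Of 120 other values under an alternative, 107 moved by less than the replicate SD or, for counts, by no more than 1.5 times, and 13 moved further. None changed the sign of a difference of 2-fold or more. No paired analysis was possible because the study has 1 group. Most members lie near the floor, where an array of this kind gives only bounds.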
